A study of Mus musculus with 33 samples.

Results

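miR-223 was measured with 2 probes in the lungs of mice given a carbon black or its vehicle, on arrays that carried 1857 probes for 650 miRNA names, 611 of them of mouse. Its probes were taken by the name mmu-miR-223 on the array, and miR-223 was picked out with earlier results of these data known. The mice were female C57BL/6, a common inbred laboratory strain, and their age is not given in the labels. Exposed mice were instilled through the trachea with 0.162 mg of nanosized carbon black particles, Printex 90. Control mice received the vehicle, 0.9% NaCl in MilliQ water with 10% v/v acellular bronchoalveolar lavage fluid (BAL). The lungs were taken on day 1 (6 exposed and 6 control mice), day 3 (4 exposed and 6 control mice) and day 28 (5 exposed and 6 control mice) after instillation, and each of the 33 arrays held the labelled small-RNA-enriched total RNA of 1 mouse. Whole lung holds many cell types, so in these bulk samples more cells that carry a miRNA and more of it per cell cannot be told apart.

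miR-223 is a miRNA of the myeloid lineage, abundant in neutrophils and present in monocytes, macrophages and platelets. It is transcribed under the control of factors of granulocyte development such as C/EBPα and PU.1, and it is known to restrain granulocyte production and activation. Among its known mRNA targets are those of the transcription factor Mef2c and of Nlrp3, the sensor of an inflammasome. In the lung, neutrophils that arrive after a particle or microbe is inhaled are a known carrier of it.

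The sequences below are from RefSeq (GRCm38.p6, plus strand) and are shown because one arm is what the array name stands for, and because the seed, which pairs with target mRNAs, sets it apart from other miRNAs. The array uses the older name without an arm, which stood for what is now the 3p arm; the files give no probe sequence. The arms lie at chrX:96242884-96242905 (3p) and chrX:96242842-96242864 (5p) within a hairpin at chrX:96242817-96242926. The hairpin lies inside the annotated long noncoding RNA gene F630028O10Rik (chrX:96239926-96243642). In the mature sequences the capitals mark bases 2 to 8, the seed, and in the hairpin they mark both arms.
mmu-miR-223-3p: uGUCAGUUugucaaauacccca
mmu-miR-223-5p: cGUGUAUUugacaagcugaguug
mir-223 hairpin: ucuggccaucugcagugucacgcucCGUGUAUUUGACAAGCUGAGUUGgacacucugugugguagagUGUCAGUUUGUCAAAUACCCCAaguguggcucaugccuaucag
Of 1738 mature mouse miRNAs in the table, 1 had the seed GUCAGUU, miR-223-3p itself, and 0 others shared it. The 5p arm was not analysed here.

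Levels are given as log2 of the background-subtracted signal after each array was scaled to a common brightness, so a difference of 1 is a doubling. The brighter of the 2 miR-223 probes stands for the miRNA, and the dimmer one is a second reading of the same RNA on the same array. Each array carried 10 spots of each probe, of which 7 to 10 were used after outlier spots were left out. All used spots of both probes were well above background on all 33 arrays and none was saturated, so miR-223 was measured in every lung, exposed or control. The coefficient of variation between spots of 1 array was 1.69% to 14.1% for the brighter probe (median 6.14%) and 2.47% to 25.9% for the dimmer (median 7.84%). The median signal over the local background was 15.1-fold for the brighter probe and 4.19-fold for the dimmer one.

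The arrays differed in brightness, and the groups differed in it too. The 75th percentile of the processed signal lay between 187 and 1211 units over all arrays and averaged 654 ± 95.6 in exposed and 472 ± 288 in control lungs at day 1 (SD, n = 6 each). At day 28 it was 653 ± 285 (n = 5) in exposed and 956 ± 215 (n = 6) in control lungs. On every slide that held them, exposed arrays sat in row 2 (15 of 15) and control arrays in row 1 (18 of 18), so exposure and slide row cannot be told apart. Slide 1 held 4 arrays: exposed replicate 3 and control replicate 1 of day 1, exposed replicate 4 and control replicate 2 of day 3. Their gaps between the 2 miR-223 probes, 2.701 to 3.096, were the largest, directly above the 1.778 to 2.698 of the other 29 arrays. The main results are given with and without these 4 arrays. The gap comes from miR-223 itself, and slide 1 holds the lowest exposed lung of day 1. Results without slide 1 are therefore no independent support. Of miRNAs that mark cell types of the lung, miR-200a, miR-200b, miR-200c, miR-141 and miR-429 of epithelium and miR-126-3p of endothelium were above background on all arrays of all 6 groups. The other endothelial one, miR-126-5p, was not. It was above background on 5 of 6 exposed and 1 of 6 control arrays at day 1. The counts were 3 of 4 and 4 of 6 at day 3, and 5 of 5 and 5 of 6 at day 28.

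At day 1 miR-223 was higher in exposed lungs. The 6 exposed lungs had a log2 signal of 8.07 at the lowest, 9.17 at the median and 9.76 at the highest, and the 6 control lungs 8.03, 8.23 and 8.77. Of the exposed lungs 5 of 6 lay above the highest control lung, and these 5 were the highest of all 33 arrays. The other one, replicate 3 on slide 1, lay at 8.07 within the control range, so the groups overlapped. As group means this was 9.08 ± 0.56 in exposed and 8.26 ± 0.27 in control lungs (SD, n = 6 each), or geometric mean signals of 541 and 307 units.

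The exposed minus control difference at day 1 was 0.82 ± 0.21 on the log2 scale (SE; 95% confidence interval 0.38 to 1.25), a 1.76-fold higher level with an interval of 1.30 to 2.38. In an exact permutation test of the group means within the day (two-sided) the p was 0.0108, and 0.0325 after Benjamini-Hochberg adjustment over the 3 days. The adjusted p of the exact tests covers the 3 days only. It does not account for the choice of miR-223 among the miRNAs, made with earlier results of these data known. In limma's fit across the 172 tested miRNAs the unadjusted p was 0.000578, the smallest of all 172, but the p adjusted over all of them was 0.0994 and missed the threshold of 0.05. With the slide, which exposed and control arrays share, as a random block the limma adjusted p was 0.0229 and passed, and with it as a fixed block the adjusted p was 0.0806 and did not. No miRNA passed that threshold at day 1 (0% called), while at an unadjusted p under 0.05 the higher ones numbered 9 and the lower ones 7. Without the 4 arrays of slide 1 the difference was 0.98, with an adjusted p of 0.00302 in limma and of 0.0238 in the exact permutation test, where its p of 0.00794 was the smallest that test can give. Leaving out 1 of 3 single arrays also brought the limma adjusted p under the threshold: exposed replicate 3 of day 1 (difference 1.02, adjusted p 0.00156), control replicate 13 of day 1 (0.92, adjusted p 0.0370) and control replicate 25 of day 3 (0.82, adjusted p 0.0498).

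**Figure D1:**
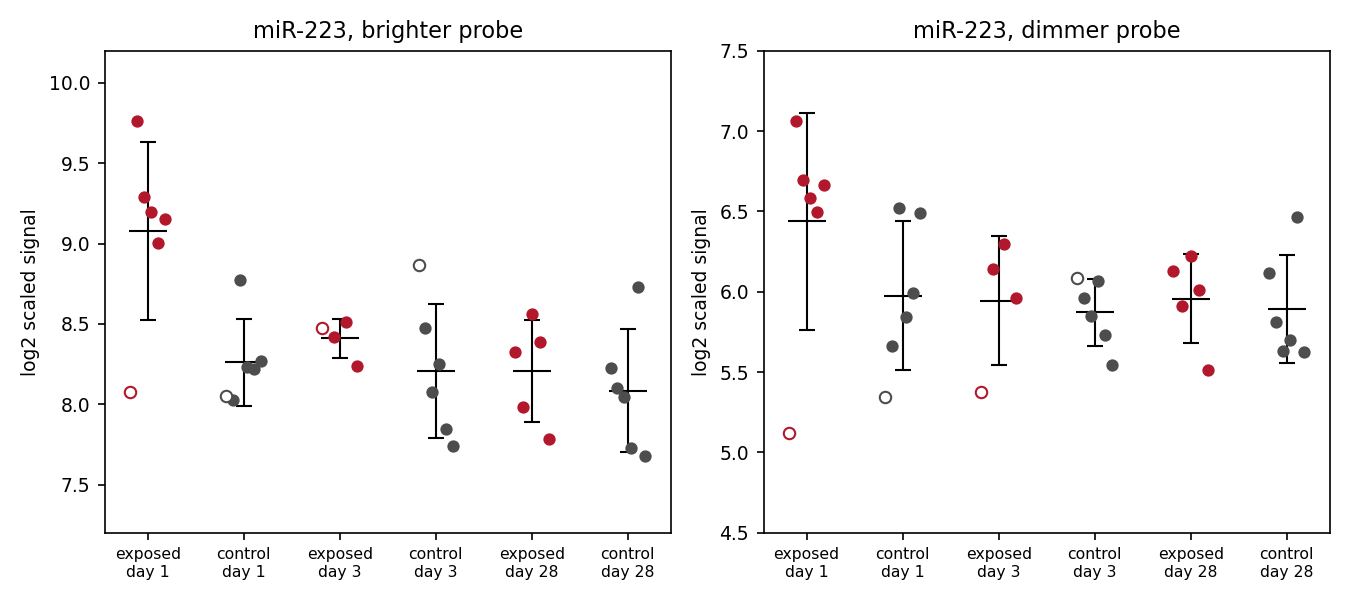
Log2 scaled signal of the brighter miR-223 probe (left) and the dimmer one (right) on each array, by treatment and day. Points are arrays, exposed in red and control in grey, open points are the arrays of slide 1, long bars are group means and whiskers are 1 SD; at day 1, 5 of 6 exposed points of the brighter probe lie above all control points, and 1 open point lies at 8.07.

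At day 3 the exposed lungs lay within the control range. The 4 exposed lungs had log2 signals of 8.47, 8.42, 8.51 and 8.24, and the 6 control lungs lay between 7.74 and 8.87 with a median of 8.16. No exposed lung (0 of 4) lay above the highest control lung, which was replicate 2 on slide 1. All 4 of 4 lay above the control median, and 3 of 6 control lungs lay below the lowest exposed lung. The means were 8.41 ± 0.12 in exposed (n = 4) and 8.21 ± 0.42 in control lungs (n = 6), and the difference was 0.20 ± 0.24 (SE; interval -0.28 to 0.69; adjusted p = 0.996 in limma, 0.576 in the exact permutation test). Without slide 1 the difference was 0.31 (exact permutation p = 0.143, adjusted 0.214). Both values lie within that interval, which with 4 exposed lungs also includes no difference.

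At day 28 the level in exposed lungs was again within the control range. The 5 exposed lungs had log2 signals of 8.33, 7.98, 8.56, 8.38 and 7.78, and the 6 control lungs lay between 7.68 and 8.73 with a median of 8.07. The means were 8.21 ± 0.32 in exposed (n = 5) and 8.09 ± 0.38 in control lungs (n = 6). The difference was 0.12 ± 0.22 (SE; interval -0.33 to 0.58; adjusted p = 0.985 in limma, 0.576 in the exact permutation test). Its sign turned with the scaling, to -0.12 with the 75th percentile taken over all probes and to -0.49 with no scaling. These scalings shift all miRNAs of an array alike: relative to the median of all 172 tested miRNAs the day 28 difference was 0.16 as reported and under both of them. Under processing that does not shift all miRNAs alike, that relative difference was -0.020 with brightness as a covariate, -0.12 with normexp background correction and 0.22 with quantile normalization. Of the tested miRNAs 0% were called at day 3 and 0% at day 28.

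**Figure D2:**
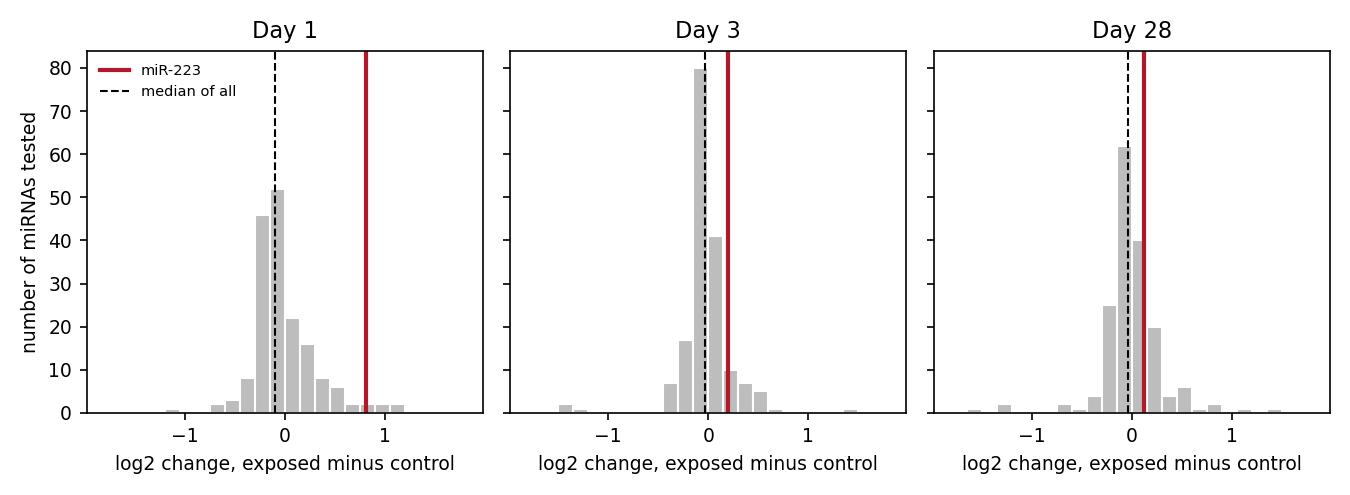
Number of the 172 tested miRNAs (vertical axis) by their log2 change, exposed minus control (horizontal axis), at days 1, 3 and 28. The red line is miR-223 (0.82, 0.20 and 0.12) and the dashed line is the median of all (-0.097, -0.036 and -0.034); at day 1 miR-223 lies at the high edge, with 5 miRNAs above it.

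Among the 172 tested miRNAs miR-223 had the 6th highest change at day 1, the 18th at day 3 and the 38th at day 28. The 5 with higher changes at day 1 were miR-689, miR-222, miR-744, miR-155 and miR-1. Of these, miR-222, miR-744 and miR-155 were above background on 4, 2 and 4 of 6 exposed arrays and on 0 of 6 control arrays, and the dimmer group's bound allowed no fold for any of them. For miR-689 the change was 1.17 ± 0.51 (SE) and for miR-1, a miRNA of striated muscle, 0.84 ± 0.76 (adjusted p in limma 0.485 and 0.632). miR-223 was the only one of the 6 that was above background on all arrays of both day 1 groups.

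The difference in response between days was tested directly. The exposed minus control difference at day 3 minus that at day 1 was -0.62 ± 0.32 (SE, adjusted p = 0.990 in limma), and at day 28 minus that at day 1 it was -0.69 ± 0.31 (adjusted p = 0.572). Between days 28 and 3 the responses differed by -0.079 ± 0.33 (adjusted p = 0.999). After adjustment none of these passed the threshold, and 0% of the 172 miRNAs were called in each of the 3 tests. Over the 3 days the mean difference was 0.38 ± 0.13 (SE, adjusted p = 0.217), and 1 miRNA of 172 (0.581%) was called in that contrast. Without slide 1 the mean difference was 0.47 with an adjusted p of 0.0155, and without exposed replicate 3 of day 1 it was 0.45 with an adjusted p of 0.0232.

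Within the exposed lungs the mean of miR-223 was lower on days 3 and 28 than on day 1, and neither difference passed the threshold in the fit without blocks. Day 28 minus day 1 was -0.87 ± 0.22 (SE, adjusted p = 0.0847 in limma, the smallest of 172) and day 3 minus day 1 was -0.67 ± 0.24 (adjusted p = 0.978), while day 28 minus day 3 was -0.20 ± 0.25 (adjusted p = 0.678). Day 28 minus day 1 passed on all 33 arrays with the slide as a random block (-0.89, adjusted p = 0.0272), and not with it as a fixed block (-0.90, adjusted p = 0.0555). It also passed with scan day as a block (-0.89, 0.0477), with brightness as a covariate (-0.90, 0.0213) and among miRNAs detected on all arrays (-0.87, 0.0401). Without slide 1 it was -1.07 (adjusted p = 0.000789), and leaving out exposed replicate 3 of day 1 gave -1.07 (0.00140), control replicate 1 of day 1 -0.87 (0.0489) and control replicate 2 of day 3 -0.87 (0.0269). Day 3 minus day 1 passed only without exposed replicate 3 of day 1 (-0.87, adjusted p = 0.0475) among these single-array omissions. In the control lungs the 3 day-to-day differences were -0.053 ± 0.21, -0.18 ± 0.21 and -0.12 ± 0.21 for day 3 minus day 1, day 28 minus day 1 and day 28 minus day 3 (adjusted p 0.977, 0.595 and 0.796). Their signs turned under several scalings; with no scaling, control day 28 minus day 1 was 1.01, where the median of all miRNAs was 1.01 too. For background, 0% of miRNAs were called between exposed days 1 and 3 and between exposed days 1 and 28, 1.74% between exposed days 3 and 28, 0% between control days 1 and 3, 6.98% between control days 1 and 28 and 0.581% between control days 3 and 28.

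In order of their means the groups were exposed day 1, exposed day 3, control day 1, exposed day 28, control day 3 and control day 28. The step between exposed day 1 and exposed day 3, 0.67, was larger than the SD of either group. The 4 other steps, 0.15, 0.053, 0.000056 and 0.12, were smaller than the larger SD of the neighbouring groups, so no neighbours among these 5 groups differed beyond their spread.

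The dimmer probe gave the same direction at day 1 with a smaller difference. Its log2 signals were 5.12 at the lowest, 6.62 at the median and 7.06 at the highest in the 6 exposed lungs, and 5.35, 5.92 and 6.52 in the 6 control lungs. Of the exposed lungs 4 of 6 lay above the highest control lung. The means were 6.44 ± 0.67 in exposed and 5.98 ± 0.46 in control lungs (SD, n = 6 each), a difference of 0.46 ± 0.24 (SE, 1.38-fold), which did not pass (limma adjusted p = 0.477; exact permutation p = 0.190). Over 5 other ways of processing, the dimmer probe's day 1 difference lay between 0.0068 and 1.12, with limma adjusted p between 0.0447 and 0.973. The value of 1.12 came with no scaling, where the median of all tested miRNAs was 0.56 at day 1, against -0.097 as reported. The value of 0.0068 came with normexp background correction, where that median was -0.36. At days 3 and 28 the dimmer probe's differences as reported were 0.072 ± 0.26 and 0.066 ± 0.25.

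The 2 probes moved together over the 33 arrays (Pearson r 0.834, Spearman rho 0.835, as a description: the probes share each array's RNA, brightness and spot chemistry). The gap between them, brighter minus dimmer, was 1.78 to 3.096 with a median of 2.28. In exposed lungs of day 1 it averaged 2.64 ± 0.17 and in control lungs of day 1 2.28 ± 0.30. On slide 1 it was 2.70 to 3.096, above the gap on all the other 29 arrays. In the lung at the low end of exposed day 1, replicate 3, both probes were low, at 8.07 and 5.12.

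Arrays of the same slide and day allow the exposed and control lungs to be set side by side. For the brighter probe, the exposed array was higher at day 1 on 6 of 6 slides. The differences were 0.026 on slide 1, 1.73 on slide 2 and 0.51 on slide 4. On slides 5, 7 and 8 they were 0.96, 0.79 and 0.88. The smallest of these differences was on slide 1 and the others lay between 0.51 and 1.73. For the dimmer probe, the exposed array was higher on 5 of 6 slides and lower on slide 1 (-0.23), with a mean of 0.46 ± 0.57 SD. In an exact sign-flip test of the brighter probe over the 6 slides the p was 0.03125, the smallest that test can give. After adjustment over 3 days it was 0.09375, and with 6 slides and the other days' p at 0.625 and 0.9375 no lower value was possible. The exposed array was the brighter one in 4 of the 6 pairs. In the other 2 (slides 2 and 5) the differences of 1.73 and 0.96 were the largest of the 6. These levels are already scaled by array brightness, and a link of brightness with the difference was not tested. For the brighter probe, the exposed array was higher at day 3 on 2 of 4 slides (mean 0.12 ± 0.42 SD). At day 28 it was higher on 3 of 5 (0.042 ± 0.64 SD), with -0.95 on slide 8 as the lowest. For the dimmer probe, it was higher on 3 of 4 slides at day 3 and on 4 of 5 at day 28.

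**Figure D3:**
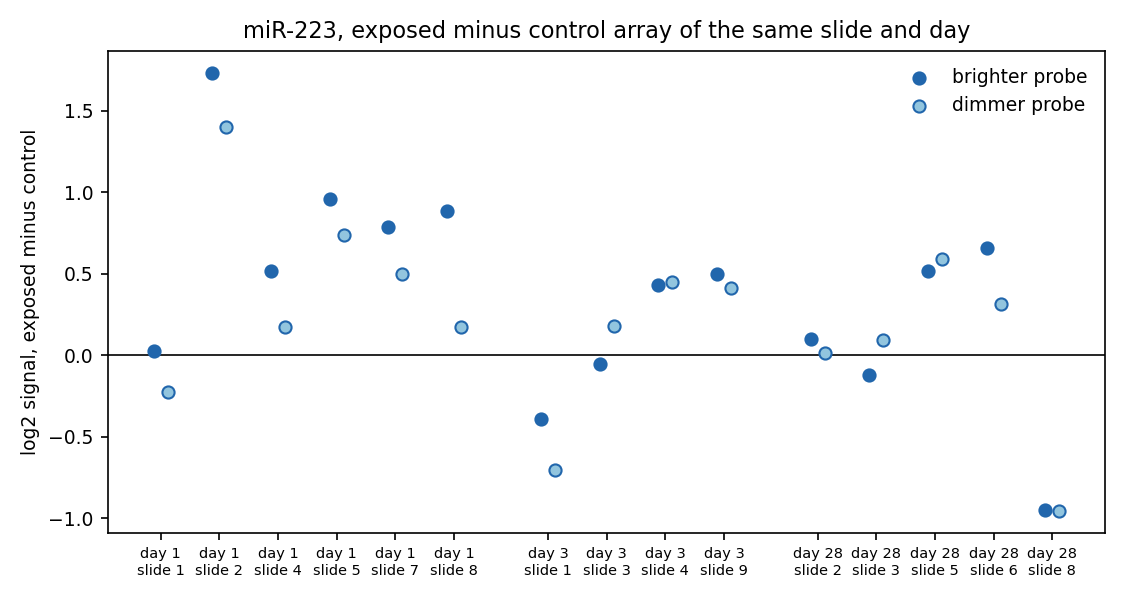
Exposed minus control log2 signal of miR-223 for each pair of arrays on the same slide and day. Dark points are the brighter probe and light points the dimmer one. At day 1 all 6 dark points lie above 0, from 0.026 on slide 1 to 1.73 on slide 2. Of the light points of day 1, 5 of 6 lie above 0, and that of slide 1 lies at -0.23. Days 3 and 28 hold points on both sides of 0.

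Other miRNAs of blood cells and inflammation were read beside it, in lists of known markers. Among myeloid miRNAs, miR-142-3p, found across blood cell lineages, had a difference of 0.51 ± 0.31 and miR-142-5p, its partner arm, one of 0.43 ± 0.21 at day 1 (SE, limma adjusted p 0.487 and 0.485). These arms, printed to show that they share no seed with miR-223, are as follows, with bases 2 to 8 in capitals (RefSeq GRCm38.p6, plus strand, chr11:87756903-87756925 and chr11:87756867-87756887; the array names the arms miR-142-3p and miR-142-5p).
mmu-miR-142a-3p: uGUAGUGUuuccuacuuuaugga
mmu-miR-142a-5p: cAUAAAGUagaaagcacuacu
The 3 myeloid members are miR-223 itself and these 2 arms of the same hairpin, so counts over them are no independent support. At day 1 all 3 were above 0, with a median of 0.51, the value of miR-142-3p, against -0.097 for all 172 miRNAs. Of the 3, 0 passed the threshold. At days 3 and 28 the medians of the 3 were 0.016 and 0.15, with 2 of 3 and 3 of 3 above 0, against -0.036 and -0.034 for all. Without slide 1, 1 of 3 was called at day 1, miR-223 itself, against 2 of all 172 (1.16%).

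Of 6 miRNAs induced in inflammation, 4 were tested and miR-132 and miR-147 were above background on no array. At day 1 the differences of miR-146a and miR-146b, feedback regulators of NF-κB signalling, were -0.060 and 0.33, and that of miR-21, known from injured and fibrotic tissue, was 0.41, with 0 of 4 called. Counting miR-155 at no fold, since no control array of day 1 had it above background, the list's median was 0.16, and 0.37 with its fitted change. At day 28 the list's median was 0.80, with 4 of 4 above 0 and 0 called, and its largest members were miR-146b at 1.14 and miR-21 at 0.85, when miR-223 stood at 0.12.

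The regulators of granulocyte differentiation had 4 of 5 members tested, with changes of -0.28 to 0.025 at day 1 and a median of -0.17 against -0.097 for all. These were miR-130a, miR-27a, miR-34a and miR-322, and miR-196b was above background on no array. The lymphoid list (miR-342-3p, miR-181a and miR-181b tested; miR-150 and miR-342-5p not) had a median of -0.18 at day 1. The red cell miRNAs miR-144, miR-451 and miR-486, carried by blood that stays in the lung, had a median of -0.022 at day 1, 0.46 at day 3 with 3 of 3 above 0, and -0.20 at day 28 with 0 of 3. miR-126-3p, miR-21 and miR-24, which platelets hold beside miR-223, had a median of -0.057 at day 1, and the 5 epithelial miRNAs one of -0.065. The endothelial miR-126-3p and miR-126-5p had day 1 changes of -0.057 ± 0.097 and 0.35 ± 0.62 (SE). With all arrays, no tested list member passed the threshold on any day; without slide 1, miR-21 passed at day 28 (0.85, limma adjusted p = 0.0350), the 1 miRNA called of 172 (0.581%).

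**Figure D4:**
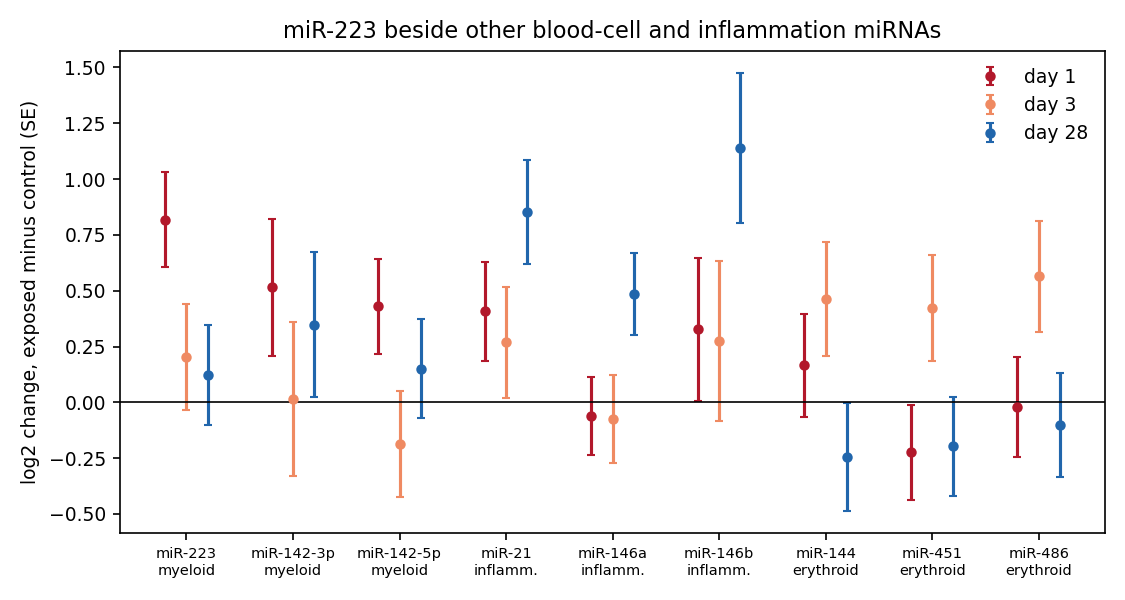
Log2 change, exposed minus control, with its SE, at days 1, 3 and 28 for the myeloid, inflammation-induced and erythroid miRNAs tested, without miR-155, which was above background on no control array of day 1. miR-223 has the highest day 1 value of those shown, while miR-146b and miR-21 have the highest day 28 values (1.14 and 0.85). The fitted changes of miR-155, not shown, were 0.93 at day 1, above that of miR-223, and 0.75 at day 28.

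By Pearson's r over the 33 arrays, the tested miRNAs whose signal moved most like that of miR-223 were miR-139-5p (0.79), miR-1224 (0.67), miR-689 (0.56), miR-21 (0.49) and miR-7a (0.46). The median r over the 171 other tested miRNAs was 0.078, and the arrays share their brightness scaling and RNA. After each group's mean was subtracted, the first 5 were miR-139-5p (0.73), miR-1224 (0.55), miR-689 (0.51), miR-340-3p (0.50) and miR-21 (0.45), so 4 of the 5 stayed the same. At days 1, 3 and 28 miR-340-3p was above background on 1 of 6, 0 of 4 and 1 of 5 exposed arrays. On control arrays it was so on 0, 2 and 4 of 6. For miR-689 these counts were 5 of 6, 3 of 4 and 4 of 5 exposed, and 2, 1 and 3 of 6 control arrays. Their r thus includes signals not above background. Without slide 1 the first 5 of the 33-array measure were miR-139-5p (0.79), miR-1224 (0.69), miR-7a (0.61), miR-689 (0.60) and miR-20a (0.58), while miR-21 (0.51) stood at place 8 and miR-142-3p, at 0.34 over all arrays, had 0.53. So 4 of the 5 miRNAs named over all arrays were again among the first 5, and the places below the second changed with slide 1.

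miR-139-5p was a dim miRNA. At day 1 it averaged 4.36 ± 0.34 in exposed and 3.79 ± 0.33 in control lungs (SD, n = 6 each), and was above background on 6 of 6 exposed and 2 of 6 control arrays. Its change at day 1 was 0.57 ± 0.21 (SE, adjusted p = 0.457 in limma), and at days 3 and 28 it was -0.037 and 0.24. miR-1224, above background on all arrays, averaged 6.77 ± 0.30 in exposed and 6.29 ± 0.37 in control lungs at day 1, a change of 0.49 ± 0.22 (SE, adjusted p = 0.485).

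The size of the day 1 difference depended on how the arrays were put on a common scale, and its direction did not. Over 18 other ways of processing the data it lay between 0.50 and 1.48, and the adjusted p between 0.00302 and 0.196. Several of these could not move the difference and left it at 0.82, so they say nothing on its size or direction. They were the slide and scan day blocks, the floor, the detection filters, the moderation settings and the fit to that day's arrays. The difference passed the threshold in 7 of the 18. The smallest difference came from the authors' deposited series table and the largest from unscaled signals, where the median of all miRNAs was also higher in exposed lungs, by 0.56. Relative to that median the day 1 difference of miR-223 was 0.92 as reported, 0.52 in the series table, 0.66 with the total gene signal and 0.68 with the mean over probes.

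**Figure D5:**
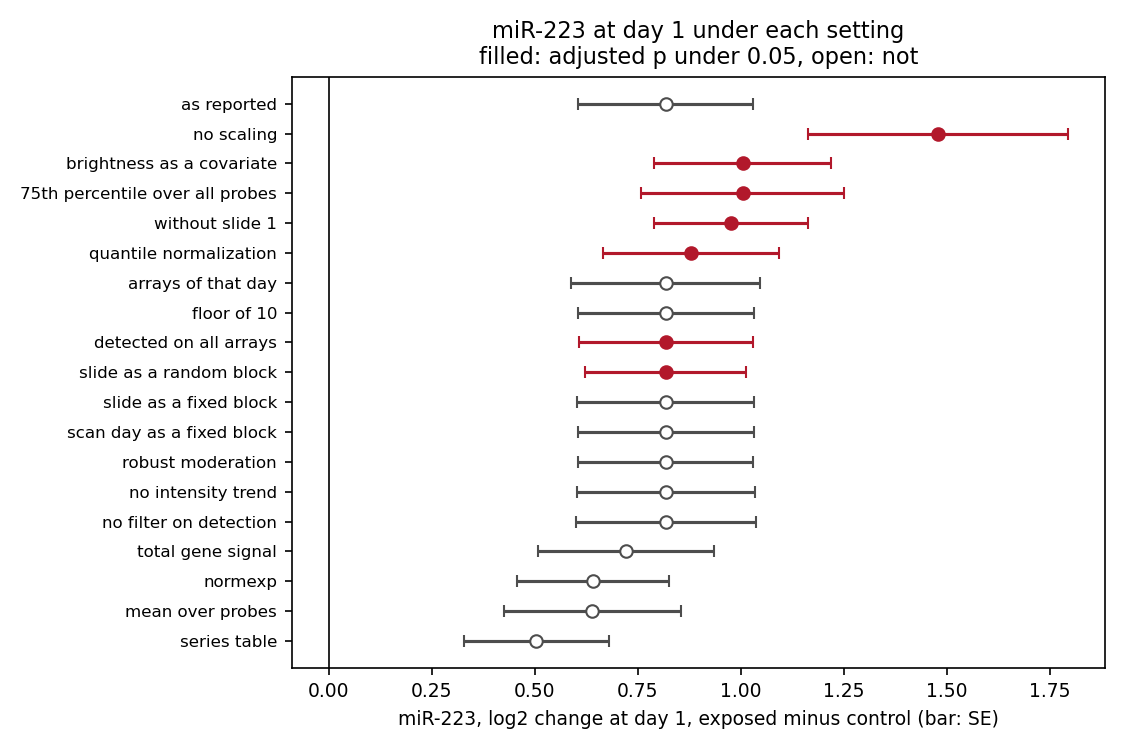
Log2 change of miR-223 at day 1, exposed minus control (horizontal axis), with its SE, under the processing reported and 18 others. Filled red points have a limma adjusted p under 0.05 and open points do not. All lie above 0, between 0.50 and 1.48. Settings that change only blocks, floor, filter, moderation or the days fitted could not move the difference and stay at 0.82.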

How the data were processed

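The members and lists were chosen with earlier results of these data known. Per the labels' protocols, lung RNA enriched for small RNA (miRvana kit) received the Cy3 dye and was put on Agilent miRNA arrays. Spot intensity on a linear scale was deposited as Feature Extraction 10.7.3.1 output, in which, per the file headers, background was subtracted from the processed signal, and no normalization between arrays is recorded there. The authors' deposited series table holds log2 values; its column medians were 5.41 to 5.43 and the correlation of each column with that array's log2 median signals was 0.973 to 0.984, so brighter means higher, while its centring stays unknown.

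Outlier spots (2.30%) were left out. The mean processed signal per probe was scaled per array to an equal 75th percentile of the 156 probes above background everywhere (33 arrays), floored at 1 and log2-transformed. The brightest probe stood for a miRNA. A miRNA was tested if above background on at least 4 arrays of a group, which left 172 miRNAs (309 probes). limma 3.58.1 in R 4.3.3 fitted 6 group means with an intensity trend, two-sided, Benjamini-Hochberg adjusted over all miRNAs, with a threshold of 0.05. Exact permutation tests compared groups within days. The fit without blocks was also run on simulated arrays with independent noise. These held no slide effect, while the correlation within slides in the data was 0.36, so that run does not cover arrays that share slides. Each replicate number names a single array and pairs no samples. The series' design names individual mice, so arrays counted as animals; their number limits the precision.

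Named were miR-223 and its probes, the 5 miRNAs most like it by Pearson's r before and after subtracting group means, those with higher day 1 changes, and list members. Alternatives covered background (normexp, offset of 50, on median signals, since the files used hold no mean signal), scaling, filters, floor, probe rule, moderation, slide and scan day blocks and each array left out.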

Additional observations from a re-analysis of the deposited data

Results flagged for a closer look

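In 12 groups of values (6 groups of arrays by 2 probes), 2 single arrays stood far from the rest of their group, where chance alone is expected to single out about 1 in 20 groups. For the dimmer probe, exposed replicate 3 of day 1 had a log2 signal of 5.12, and its gap to the next exposed lung was 0.707 of the group's range, above the critical value of 0.625 for 6 samples. For the brighter probe, control replicate 13 of day 1 had 8.77, and its gap to the next control lung was 0.679 of the range. Neither array passed the critical value with its other probe. With the dimmer probe control replicate 13 had 6.52, close to the 6.49 of control replicate 27. With the brighter probe exposed replicate 3 had 8.07, and the next exposed lung, replicate 26, had 9.01. Leaving out either array brought the brighter probe's day 1 difference in limma past the threshold, as given in the report. The dimmer probe's did not pass without either: it was 0.72 without exposed replicate 3 (limma adjusted p = 0.0825) and 0.57 without control replicate 13 (adjusted p = 0.443).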

How the results depend on the processing

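Replicate numbers, each of 1 array, pair no samples, so arrays were paired by slide only. At day 1 the difference passed the threshold with the 75th percentile over all probes (1.00, adjusted p = 0.0182 in limma), no scaling (1.48, 0.00628), slide as a random block (0.82, 0.0229), quantile normalization (0.88, 0.0175), only miRNAs detected on all arrays (0.82, 0.0473), without slide 1 (0.98, 0.00302) and with brightness as a covariate (1.00, 0.0104). The exact test's adjusted p was 0.571 on the dimmer probe (0.46), and by sign flips (0.82) 0.0938, the lowest 6 slides allowed there. At day 28 the sign turned over all probes (-0.12, also in the exact test), with no scaling (-0.49, in both) and with brightness (-0.051). The day 28 minus day 1 response passed with no scaling (-1.97, 0.0197); the day 28 minus day 3 response turned in the series table (0.089); the mean difference passed without slide 1 (0.47, 0.0155). In exposed lungs, day 28 minus day 1 passed with slide as a random block (-0.89, 0.0272), detection on all arrays (-0.87, 0.0401), without slide 1 (-1.07, 0.000789), brightness (-0.90, 0.0213) and scan day as a block (-0.89, 0.0477, chosen after seeing the data), and day 28 minus day 3 turned in the series table (0.039). In control lungs, day 3 minus day 1 turned over all probes (0.23), with no scaling (0.62), slide as a fixed (0.11) or random block (0.043), quantile normalization (0.0019) and brightness (0.14); day 28 minus day 1 over all probes (0.26), with no scaling (1.01, 0.00900) and brightness (0.16); day 28 minus day 3 over all probes (0.028), with no scaling (0.40), without slide 1 (0.0084) and brightness (0.024). For the dimmer probe with no scaling, day 1 passed (1.12, 0.0447) and days 3 and 28 turned (-0.00069 and -0.55), and day 28 also turned over all probes (-0.18). With no scaling the median of all tested miRNAs was 0.56 at day 1 and -0.65 at day 28, against -0.097 and -0.034 as reported. The passes and turns listed with no scaling, of either probe and of the responses, include this shift of all miRNAs. Relative to the median, the brighter probe's differences were 0.92 and 0.16, with no scaling and as reported. At day 1, 3 miRNAs were called over all probes, with the total gene signal and with no filter, 6 with no scaling, 4 with quantile normalization, 2 with a random block, mean over probes and without slide 1, and 1 with detection on all arrays and brightness, against 0 as reported; 1 was called at day 3 without slide 1, and 1 at day 28 with normexp, quantile normalization, a floor of 10, no filter and without slide 1. Causes were not tested. Leaving out each of the 33 arrays in turn gave 0.68 to 1.02 at day 1, 0.11 to 0.33 at day 3 and 0.035 to 0.25 at day 28; response differences of -0.82 to -0.48 (day 3 minus 1), -0.90 to -0.56 (28 minus 1) and -0.21 to 0.050 (28 minus 3); a mean of 0.34 to 0.45; exposed day steps of -0.87 to -0.53 (3 minus 1), -1.07 to -0.73 (28 minus 1) and -0.29 to -0.095 (28 minus 3); control day steps of -0.18 to 0.049, -0.31 to -0.074 and -0.25 to 0.0084; dimmer-probe differences of 0.34 to 0.72, -0.046 to 0.26 and -0.00025 to 0.18 at days 1, 3 and 28; and 0 to 2, 0 and 0 to 4 called miRNAs.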
